A study of Mus musculus with 6 samples.

Results

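To describe the lung surfactant program in mouse thyroid tumors driven by YAP, 10 genes of surfactant and lung secretion were followed across the 6 libraries of the series. The genes were the surfactant proteins Sftpa1, Sftpb, Sftpc and Sftpd, the lamellar body and surfactant handling genes Abca3, Lamp3, Napsa and Slc34a2, and the secreted proteins Chil1 and Cxcl15. They were taken by symbol from the 35027 genes of the table. The genes were chosen by the measured levels themselves, since surfactant transcripts were high in BrafYAP libraries, so their levels between the genotypes are a description and carry no test.

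RNA was sequenced from thyroid tumor cells sorted for Kate, a red fluorescent reporter. All mice carried a Cre that recombines in thyroid follicular cells, a Cre-dependent rtTA transactivator linked to the Kate reporter, and a tetO transgene for YAPS127A, a mutant YAP that stays in the nucleus, switched on by doxycycline (dox) chow from 4 weeks of age. There were 3 YAP libraries (replicates 1, 2 and 3) from these mice and 3 BrafYAP libraries (replicates 1, 2 and 6) from mice that in addition expressed BrafV600E from the endogenous Braf gene, each library from about 20000 sorted cells. The labels give 3 pooled tumors for a YAP library but 1 tumor for a BrafYAP library, so pooling and genotype cannot be told apart. The study's methods instead describe 1 tumor per mouse for each biological replicate, with no pooling. They give the same start of dox as the labels, whereas the study's results give 3 months of age. The labels are followed here.

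Pulmonary surfactant is a film of lipid and protein that lowers surface tension in the alveoli. Alveolar type 2 cells assemble its lipids and the hydrophobic proteins SP-B and SP-C in lamellar bodies, and secrete the collectins SP-A and SP-D, which bind microbes. Thyroid and lung epithelium both arise from foregut endoderm that expresses the transcription factor Nkx2-1, which drives thyroglobulin in thyroid follicular cells and the surfactant genes in the lung.

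The depth was 26.2 to 36.9 M estimated reads per library. BrafYAP replicate 6 stood apart. On log2 values of the 7319 genes with a mean of at least 1, its correlation with the other libraries was 0.733 to 0.879, and that of the other pairs was 0.803 to 0.979. As a check of the labelled tissue, thyroglobulin (Tg) had 6474, 1046 and 16190 estimated reads in YAP replicates 1, 2 and 3, and 116, 66.0 and 22120 in BrafYAP replicates 1, 2 and 6, so it was nearly absent from BrafYAP replicates 1 and 2. A value here is the deposited TPM (a transcript level scaled to gene length and to the whole library) with 0.0001 added by the authors, so that a gene without reads is listed at 0.0001. The authors divided by the whole gene span with introns, so values are compared between libraries only. Levels of different genes are compared as exonic TPM, which was recalculated from estimated reads and exonic length.

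The promoters of Sftpa1, Sftpb and Chil1, which were higher in every BrafYAP library, are shown first, together with that of Slc34a2, which was not. Those of Abca3, which was not higher either, and of Lamp3 and Cxcl15 were searched but are not printed. Of the 10 genes, 7 had a promoter entry in RefSeq (build GRCm38.p6, the same assembly as mm10), and Sftpc, Sftpd and Napsa had none. The sequences are the 250 bases before the RefSeq transcription start, read 5′ to 3′ on the gene's strand, and all of the genes shown lie on the plus strand. Capitals mark matches to CTCAAG, which holds the core CAAG of NKX2-1 binding sites, and to the forkhead (FOXA) core TGTTTNC or its reverse complement. The motifs were searched on both strands. Every CTCAAG also holds a CAAG, and CTCAAG and TGTTTNC do not overlap each other in these windows. The RefSeq starts of Slc34a2 and Sftpa1 lie inside the spans given for these genes below, that of Sftpa1 by only a few bases.

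Sftpa1 (chr14:41131538-41131787): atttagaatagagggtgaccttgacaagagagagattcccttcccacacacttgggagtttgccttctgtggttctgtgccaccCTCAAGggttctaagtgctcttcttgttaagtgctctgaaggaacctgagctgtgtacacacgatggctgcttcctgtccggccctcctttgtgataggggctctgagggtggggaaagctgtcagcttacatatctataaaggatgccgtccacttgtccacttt
Sftpb (chr6:72304360-72304609): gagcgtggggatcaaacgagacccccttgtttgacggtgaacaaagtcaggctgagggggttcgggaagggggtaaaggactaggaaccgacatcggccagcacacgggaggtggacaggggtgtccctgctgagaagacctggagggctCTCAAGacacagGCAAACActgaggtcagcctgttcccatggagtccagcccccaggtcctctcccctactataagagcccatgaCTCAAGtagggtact
Chil1 (chr1:134181906-134182155): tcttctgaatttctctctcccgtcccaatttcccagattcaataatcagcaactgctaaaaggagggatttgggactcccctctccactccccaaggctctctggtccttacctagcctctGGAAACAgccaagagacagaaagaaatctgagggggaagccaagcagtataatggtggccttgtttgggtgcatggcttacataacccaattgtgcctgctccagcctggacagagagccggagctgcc
Slc34a2 (chr5:53049103-53049352): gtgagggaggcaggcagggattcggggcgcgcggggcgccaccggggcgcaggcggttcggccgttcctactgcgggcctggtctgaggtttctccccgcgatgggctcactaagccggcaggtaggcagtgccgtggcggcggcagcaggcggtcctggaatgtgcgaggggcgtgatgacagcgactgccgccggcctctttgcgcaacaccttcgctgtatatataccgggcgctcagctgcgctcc

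CTCAAG was found in 2 of the 7 promoters, once in Sftpa1, 166 to 161 bases before the start, and at 2 positions in Sftpb, 100 to 95 and 15 to 10 bases before it. It occurred in 13.3% of the 32851 promoters in the reference table. TGTTTNC was found in 3 of the 7, Sftpb, Lamp3 and Chil1, and in 17.8% of all promoters. In Sftpb it lay at 88 to 82 bases before the start, close to the distal CTCAAG. The short core CAAG was found in 6 of the 7, with 6 matches in Sftpa1 and 0 in Slc34a2, but 86.6% of all promoters hold it. These matches describe the letters of the windows and say nothing of binding.

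The label under which the genes were chosen held mainly for 1 library. In BrafYAP replicate 6, 8 of the 10 genes had their highest value, against 23.8% of the 16832 genes with a mean of at least 10 estimated reads, a group that includes all 10. The same 8 exceeded the next library more than 10 times, against 1.49% of those genes. The exceptions were Abca3 and Slc34a2. In BrafYAP replicates 1 and 2 the picture was narrower, and 4 genes (Sftpa1, Sftpb, Sftpd and Chil1) lay above all 3 YAP libraries in both, against 19% of all genes. These 4 were also the only members whose BrafYAP libraries all lay above all YAP libraries, against 11.7% of all genes. These counts describe how the genes were chosen, and nothing is read from them about the genotypes.

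**Figure D1:**
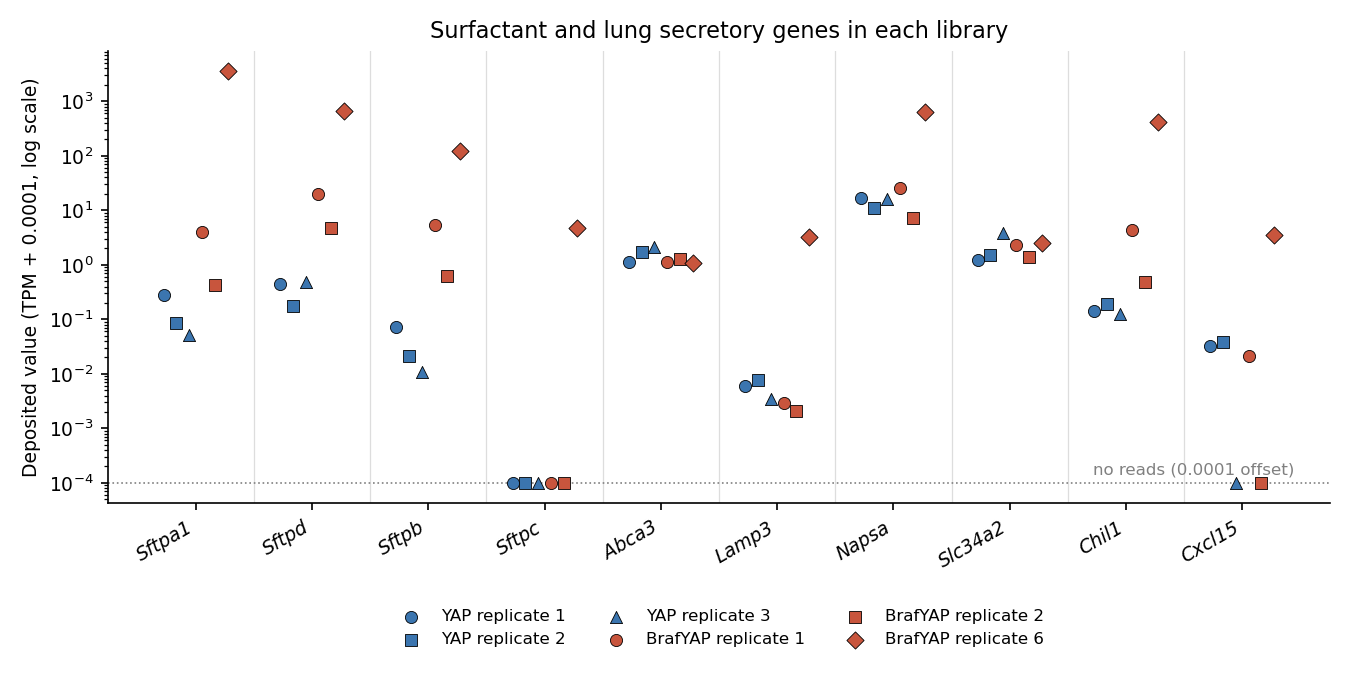
Deposited values (TPM + 0.0001, log scale) of the 10 genes in each library, with YAP libraries in blue, BrafYAP libraries in red and a separate symbol for each replicate. BrafYAP replicate 6 (diamonds) is far above the other libraries for 8 of the 10 genes, and Abca3 and Slc34a2 show no such separation.

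Sftpa1 encodes SP-A, a surfactant collectin, and lies at chr14:41131782-41136452 on the plus strand of mm10. Its value was 0.285, 0.0870 and 0.0513 in YAP replicates 1, 2 and 3, and 4.04, 0.435 and 3540 in BrafYAP replicates 1, 2 and 6. The groups did not overlap, but BrafYAP replicate 2 lay just above YAP, and most of the BrafYAP mean came from replicate 6. The estimated reads behind these values were 39.0, 10.0 and 7.0 in YAP and 513, 78.0 and 561220 in BrafYAP, so replicate 6 held 877 times the value of replicate 1, the next library. By exonic TPM, Sftpa1 reached 15443 in BrafYAP replicate 6 and ranked 3 among all genes there. The log2 difference of log2(value + 1), BrafYAP minus YAP, was 4.70, and 1.24 without replicate 6.

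Sftpd encodes SP-D, the other surfactant collectin, and lies at chr14:41172214-41185149 on the minus strand, 35761 bases from Sftpa1. Its value was 0.448, 0.179 and 0.489 in YAP, and 19.9, 4.80 and 664 in BrafYAP replicates 1, 2 and 6. Both BrafYAP replicates 1 and 2 were clearly above YAP for this gene, with 7000 and 2382 estimated reads against 57.0 to 185 in the YAP libraries. The log2 difference of Sftpd was 4.98, and 3.01 without replicate 6, the largest of the 10 genes on this scale. On the scaled estimated reads it was 6.86, below Sftpb (7.97) and Sftpa1 (7.31). Without that library the mean level in BrafYAP was 33.2 times that in YAP for Sftpd, and 15.9 times for Sftpa1.

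Sftpb encodes SP-B, the hydrophobic protein needed for lamellar body formation, and lies at chr6:72304610-72314371 on the plus strand. Its value was 0.0735, 0.0209 and 0.0106 in YAP, and 5.28, 0.619 and 123 in BrafYAP replicates 1, 2 and 6. The YAP values rest on 21.0, 5.00 and 3.00 estimated reads, near the limit of detection, whereas the BrafYAP libraries had 1402, 232 and 40782. The log2 difference was 3.38, and 1.62 without replicate 6, when the mean level was still 84.5 times that in YAP.

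Sftpc encodes SP-C, a hydrophobic peptide made almost only by alveolar type 2 cells, and lies at chr14:70520949-70524081 on the minus strand. It was listed at 0.0001 in 5 libraries, with 0 estimated reads, and at 4.77 in BrafYAP replicate 6, with 507. Taking 3 reads per library as the limit that a count of 0 allows, its level in replicate 6 was at least 123-fold higher than in any other library. The limit covers counting error only, as reads amplified by PCR are not independent molecules. BrafYAP replicates 1 and 2, which did hold reads of the other 3 surfactant proteins, had none of Sftpc.

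The makeup of the surfactant transcripts differed between the BrafYAP libraries. By exonic TPM, Sftpd made up 76.5% of the summed level of the surfactant proteins in replicate 1 and 87.2% in replicate 2, and Sftpb made up 18.8% and 10.4%. Sftpa1 was 4.74% and 2.41% in these libraries, but it was 58.1% in replicate 6, where Sftpd was 35.7%, Sftpb 6.13% and Sftpc 0.145%. The level of Sftpa1 in replicate 6 was 400 times that of Sftpc and 1.63 times that of Sftpd. The surfactant proteins thus differed by library in composition as well as in amount, and each BrafYAP library is 1 tumor, so there is no replicate of replicate 6.

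**Figure D2:**
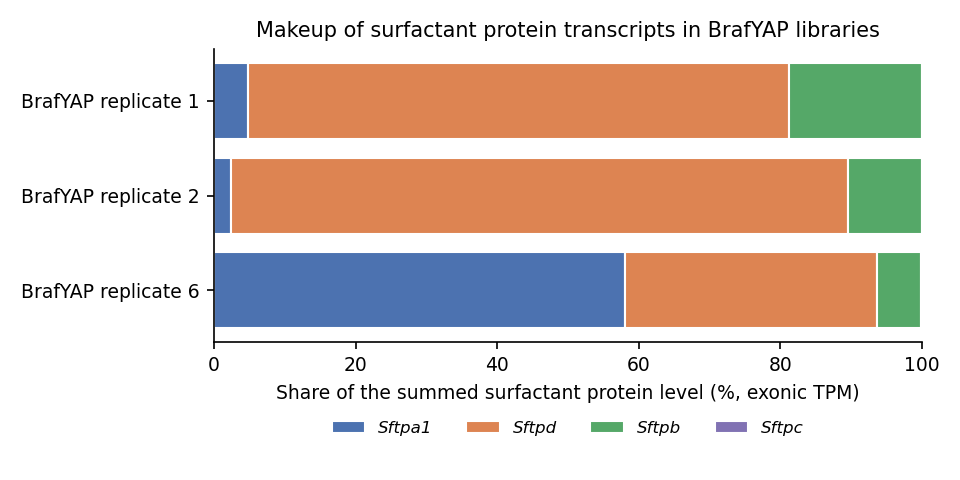
Share of each surfactant protein gene in their summed exonic TPM (%, horizontal axis) in the 3 BrafYAP libraries. Sftpd is the main transcript in replicates 1 and 2 (76.5% and 87.2%), and Sftpa1 is in replicate 6 (58.1%), and Sftpc is too small to be seen.

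Napsa encodes napsin A, the aspartic protease that processes SP-B, and lies at chr7:44572380-44586862. Unlike the surfactant proteins, it was well detected in every library. Its value was 16.8, 10.9 and 16.0 in YAP, and 25.1, 7.13 and 638 in BrafYAP replicates 1, 2 and 6. BrafYAP replicate 2 lay below all YAP libraries and replicate 1 above them. The log2 difference of 1.74 became -0.07 without replicate 6, which exceeded replicate 1 by 25.4 times. The gene overlaps Gm15396, and reads of overlapping genes may be shared.

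Lamp3 encodes DC-LAMP, a membrane glycoprotein of lamellar bodies that is also found in mature dendritic cells, and lies at chr16:19653378-19706375. Its value was 0.00603, 0.00778 and 0.00341 in YAP, and 0.00296, 0.00207 and 3.23 in BrafYAP replicates 1, 2 and 6. Outside replicate 6 these are 4.01 to 10.0 estimated reads per library, against 5816 in replicate 6. The log2 difference was 0.69, and -0.00 without replicate 6.

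Abca3, the transporter that loads phospholipid into lamellar bodies, lies at chr17:24351950-24410201 and was detected throughout. Its value was 1.11, 1.75 and 2.11 in YAP and 1.14, 1.28 and 1.06 in BrafYAP replicates 1, 2 and 6, a mean of 1.66 ± 0.507 (SD, n = 3) against 1.16 ± 0.111 (SD, n = 3). The groups overlapped, and replicate 6 had the lowest value of all. Slc34a2, the sodium-phosphate cotransporter NaPi-IIb of the alveolar type 2 cell surface, lies at chr5:53038081-53071664. Its value was 1.25, 1.50 and 3.76 in YAP and 2.30, 1.40 and 2.53 in BrafYAP replicates 1, 2 and 6, with means of 2.17 ± 1.38 (SD, n = 3) and 2.08 ± 0.598 (SD, n = 3). The log2 differences were -0.28 for Abca3 and 0.02 for Slc34a2. Abca3 and Slc34a2 overlap short predicted genes.

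Chil1, a secreted chitinase-like protein of epithelium and macrophages, lies at chr1:134182176-134190181 and had a pattern close to the surfactant proteins. Its value was 0.145, 0.193 and 0.124 in YAP, and 4.27, 0.485 and 409 in BrafYAP replicates 1, 2 and 6. All BrafYAP libraries were above all YAP libraries, and replicate 6 was 95.9 times replicate 1. The log2 difference was 3.68, and 1.28 without replicate 6. Cxcl15, the chemokine lungkine of lung epithelium, lies at chr5:90794534-90803067. It was at 0.0321 and 0.0381 in YAP replicates 1 and 2, at 0.0216 in BrafYAP replicate 1, at the offset in YAP replicate 3 and BrafYAP replicate 2, and at 3.49 in BrafYAP replicate 6. The 5 lower libraries hold at most 8.00 estimated reads of it and replicate 6 holds 1010.

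**Figure D3:**
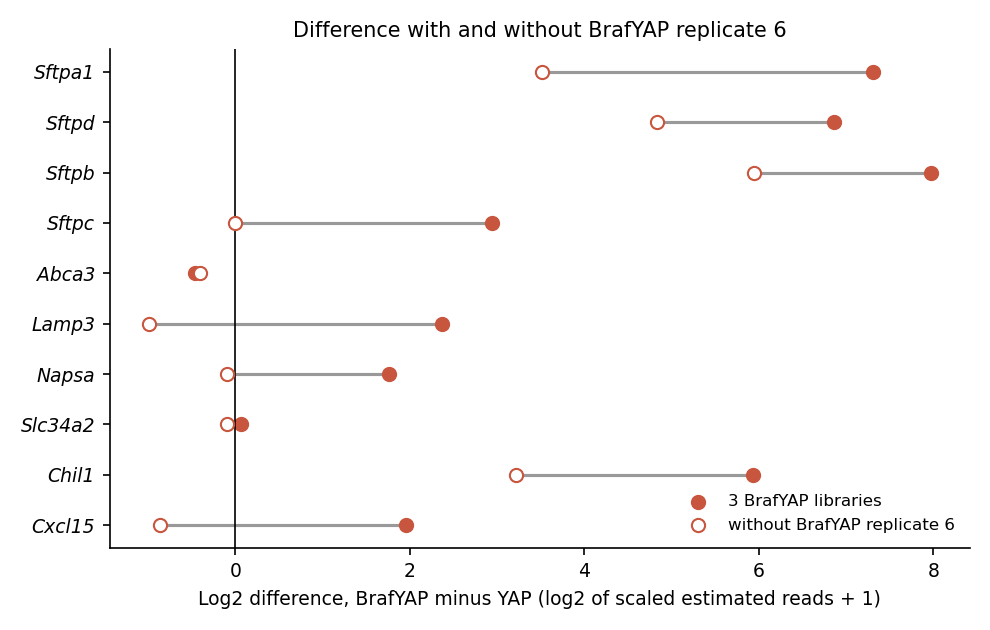
Log2 difference, BrafYAP minus YAP (horizontal axis, on log2 of scaled estimated reads + 1), of each gene with all BrafYAP libraries (filled) and without BrafYAP replicate 6 (open). Sftpa1, Sftpd, Sftpb and Chil1 stay above 0 without that library (3.22 to 5.94), and the other 6 genes lie at or below 0.

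Over the 10 genes the median log2 difference was 1.29 (1.28 with 3 reads in place of 0 for Sftpc), against -0.06 over the 7319 genes tested. Without BrafYAP replicate 6 it was -0.00, against -0.05. Of the 10, 7 had a mean of at least 1, and Sftpc, Lamp3 and Cxcl15 did not. Summed over the 10 genes, exonic TPM made up 0.0207 to 0.0351% of the total in YAP libraries, 0.0835% and 0.0239% in BrafYAP replicates 1 and 2, and 3.92% in replicate 6. BrafYAP replicate 1 was above replicate 2 for 8 of the 10 genes. In bulk samples, fewer cells with a transcript and less of it per cell cannot be told apart.

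**Figure D4:**
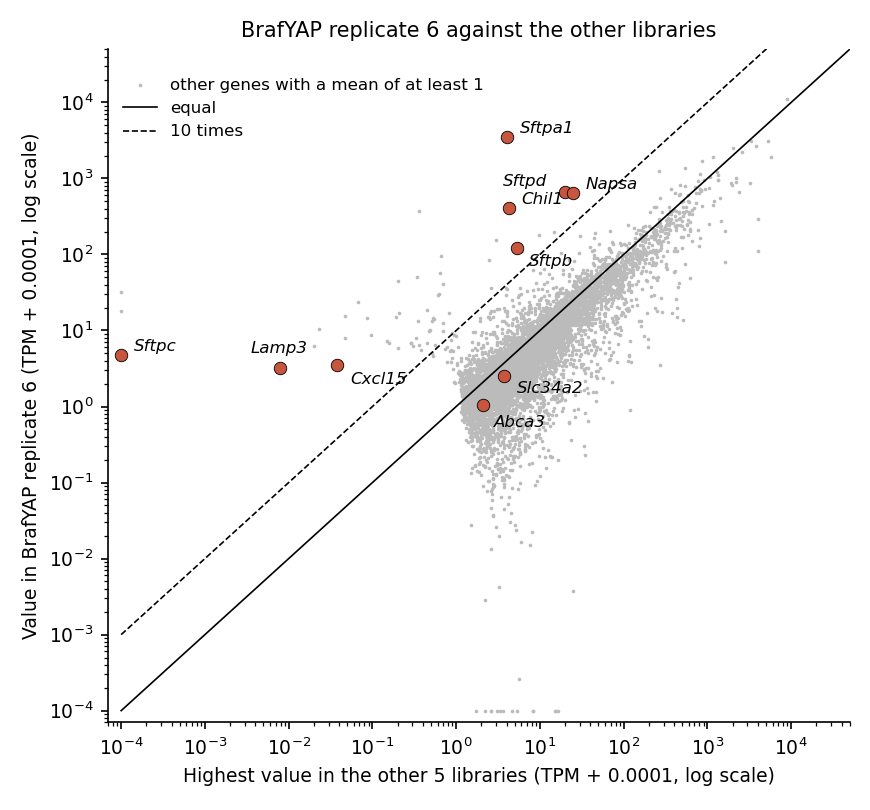
Value in BrafYAP replicate 6 (vertical axis) against the highest value in the other 5 libraries (horizontal axis), both TPM + 0.0001 on log scales, for genes whose mean is 1 or more (grey) and the 10 genes described (red). The genes above the dashed line exceed the other libraries more than 10 times; 5 of them are members with a mean of at least 1.

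Of the 7319 genes, 52 (0.71%) exceeded the next library more than 10 times in BrafYAP replicate 6, against 0 to 2 genes in each of the other libraries. Ordered by exonic TPM in replicate 6, Sftpa1, Sftpd, Napsa and Chil1 were the first 4 of the 52 and Sftpb was the sixth. Dlk1, an imprinted transmembrane protein of fetal tissues, was the fifth, with a value of 373 in replicate 6 and at most 0.364 elsewhere.

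Dlk1 was also the gene most like Sftpa1. Likeness was measured as the root mean square difference of centred log2(value + 1) over the 6 libraries, and it was 1.17 for Dlk1, followed by 1.85 for the basophil protease Mcpt8 and 2.02 for Dcpp3, a secreted protein. For Sftpb the closest genes were Mcpt8 (0.62), the acute phase glycoprotein Lrg1 (0.63) and the granzyme Gzme (0.85). For Sftpd they were Gzme (0.78), Mcpt8 (0.94) and Lrg1 (1.32). Gzme had values of 9.64 and 8.21 in BrafYAP replicates 1 and 2 and 182 in replicate 6, against 0.0741 to 0.158 in YAP. For Sftpc they were the endothelial factor Sox18 (0.08), the peptide Nmb (0.11) and the mast cell protease Mcpt2 (0.11), all at 5.96 to 7.94 in replicate 6. The closest member was Chil1 for Sftpa1, Sftpb and Sftpd (1.18, 0.66 and 0.79), and Cxcl15 for Sftpc (0.15).

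Neighbouring genes were listed to see whether the levels extended along the chromosome. Of 21 other genes within 100 kb of a surfactant protein gene and with a mean of at least 10 estimated reads, 4 were highest in BrafYAP replicate 6 and 0 exceeded the next library more than 10 times. The shares over all genes were 23.8% and 1.49%. Mat1a, the liver-type methionine adenosyltransferase, came closest. It lies 7370 bases from Sftpa1 and had 11.0 to 79.0 estimated reads in 5 libraries and 915 in replicate 6, a value 9.98 times the next. Mbl1, a mannose-binding collectin that lies between Sftpa1 and Sftpd, was below the minimum, with 28 estimated reads in replicate 6 and 0 in the other 5 libraries. Bmp1, 715 bases from Sftpc, had values of 1.14 to 4.38 in the other libraries and 0.461 in replicate 6. Mat1a, Mbl1 and Bmp1 were chosen after their values were seen.

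Other genes of the alveolar type 2 program were compared by a test, unlike the members, and none of those tested passed. BrafYAP was compared with YAP by limma with Benjamini-Hochberg adjustment over the 7319 genes, of which 18 (0.246%) passed, 6 higher (0.082%) and 12 lower (0.164%). The p-values measure the spread between these libraries, in which pools of tumors are set against single tumors. Of 30 other alveolar type 2 and surfactant metabolism genes, 17 were tested and 0 passed. At an unadjusted p under 0.05, 3 were higher and 3 lower, against 10.7% higher and 9.17% lower over all genes, and the median log2 difference of the list was 0.60. That median includes Dlk1, Cd36, Etv5, Lgi3 and Bex2, whose YAP means were 0.010 to 0.487. These genes reached the minimum mean of 1 only through their BrafYAP values. In BrafYAP replicate 6, 17 of the 30 genes had their highest value. Of all genes with a mean of at least 10 estimated reads, 23.8% did, and that share is set beside the same counts below. The list counts also take in genes under that minimum, so the share is only a rough background for them.

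The 3 genes named from each list are those of the highest mean deposited value, an order that depends on the span division and is no ranking of levels. In the alveolar type 2 list these genes were not highest in replicate 6. Lyz2, lysozyme of type 2 cells and macrophages, had values of 3960, 2863 and 1064 in YAP and 1179, 875 and 297 in BrafYAP replicates 1, 2 and 6 (log2 difference -1.76, SE 0.66, limma adjusted p = 0.206). Cd74, the MHC class II invariant chain, differed by -2.17 (SE 0.58, limma adjusted p = 0.113), with values of 372 to 1442 in YAP and 111 to 274 in BrafYAP. Cldn3, a tight junction claudin, differed by 2.42 (SE 0.93, limma adjusted p = 0.216), with 23.8 to 299 in YAP and 395 to 933 in BrafYAP. Dlk1 did not pass either (2.99, SE 2.10, limma adjusted p = 0.457).

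The following lipid genes of the list were chosen after their values were seen. Scd1, a fatty acid desaturase, was at 4.42 to 5.93 in 5 libraries and 16.3 in replicate 6. Fasn, fatty acid synthase, was at 4.35 to 10.0 and 25.2. Cd36, a fatty acid transporter, was at 0.0611 to 0.287 and 6.90. Lpcat1, which remodels surfactant phosphatidylcholine, was at 0.353 to 0.604 in YAP, 0.757 and 0.701 in BrafYAP replicates 1 and 2, and 1.85 in replicate 6. Cd36 exceeded the next library 24.1 times in replicate 6, a factor like that of Sftpb, and the factors of Scd1, Fasn and Lpcat1 were 2.45 to 2.75. Elovl1, a fatty acid elongase, went the other way, at 52.2 to 64.4 in YAP and 42.1, 36.3 and 31.9 in BrafYAP replicates 1, 2 and 6 (log2 difference -0.64, SE 0.25, limma adjusted p = 0.213).

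Markers of alveolar type 1 cells, which form the thin gas-exchange surface, were more often lower than higher in BrafYAP. Of 18 genes, 12 were tested and 0 passed, with a median log2 difference of -0.52. Without overlap, 2 of the 12 were higher and 3 lower, against 11.8% and 16.4% of all genes. Of the 18, 3 were highest in BrafYAP replicate 6, against 23.8% of all genes. The 3 of the highest mean value were Ager (278 to 392 in YAP, 136 to 338 in BrafYAP), Krt7 (26.4 to 181, and 68.6 to 319) and Cryab (105 to 194, and 6.0 to 74.9). Their log2 differences were -0.51 (SE 0.39, limma adjusted p = 0.487), 0.86 (SE 0.86, limma adjusted p = 0.601) and -2.24 (SE 0.91, limma adjusted p = 0.234). Hopx, Aqp5 and Vegfa were named after their values were seen. Hopx, a further type 1 marker, had 247 estimated reads in replicate 6 and 939 to 1639 in the other libraries. The water channel Aqp5 lay above YAP (4.36 to 8.05) in every BrafYAP library, at 18.3, 11.3 and 31.5 in replicates 1, 2 and 6 (log2 difference 1.42, SE 0.41, limma adjusted p = 0.130). Vegfa, an endothelial growth factor, was at 1.09 to 1.27 in YAP and 1.77 to 3.15 in BrafYAP, also highest in replicate 6.

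Airway secretory markers were followed with 19 genes of club and goblet cells, of which 5 were tested and 0 passed. Their summed value was 8.03 to 17.0 in 5 libraries and 67.6 in BrafYAP replicate 6. Such a sum, here and below, depends on the span division and can be carried by few genes. The largest values in it were those of Hp, Cyp2f2 and Bpifa1, at 35.2, 15.2 and 9.65 in replicate 6. Of the 19 genes, 12 were highest there (all genes, 23.8%). Their part in the surfactant result was not tested. Scgb1a1, the defining club cell secretoglobin, had 0 estimated reads in 5 libraries, replicate 6 among them, and 8.00 in BrafYAP replicate 2. Cyp2f2, a club cell cytochrome, was at 15.2 in replicate 6 and at most 0.190 elsewhere, and Hp, haptoglobin, was at 35.2 against 0.644 to 4.01. Cyp4b1 was at 4.40 to 7.05 in YAP and 3.26 to 9.79 in BrafYAP. The log2 differences were 1.39 (SE 0.99, limma adjusted p = 0.460) for Cyp2f2, 0.55 (SE 1.04, limma adjusted p = 0.791) for Hp and -0.13 (SE 0.38, limma adjusted p = 0.880) for Cyp4b1. Of the 14 ciliated cell markers, 2 were tested, Tppp3 and Foxj1, and 0 passed. Tppp3 was at 13.9 and Foxj1 at 0.107 in replicate 6, the lowest values of the 6 libraries. Cfap126, which completes the 3 of the highest mean value, went the other way. It was at 0.0872 to 0.201 in YAP and 0.237, 0.413 and 0.217 in BrafYAP replicates 1, 2 and 6. On scaled estimated reads its log2 difference was 1.07 (SE 0.49, limma adjusted p = 0.269). Of the 14, 4 were highest in replicate 6 (all genes, 23.8%), but among them Ccdc153, Cfap53 and Cdhr4 had at most 14 estimated reads in any library. Tmem212, named after its values were seen, had 358 estimated reads there and at most 25.0 elsewhere.

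Among 22 transcription factors of the lung and foregut lineage, 8 were tested and 0 passed. Of these 8, 4 were higher in every BrafYAP library than in any YAP library and 0 were lower, against 11.8% and 16.4% of all genes. The 4 were Sox9, Srebf1, Foxa2 and Etv4. Foxa2 and Etv4 had YAP means of 0.0373 and 0.627 and reached the minimum mean of 1 only through their BrafYAP values, so nothing is read from this count. Among those below the minimum mean, and named after their values were seen, Klf5, Foxp2 and Thrb also lay above YAP in every BrafYAP library and Tfcp2l1 below it. Nkx2-1 was at 1.76, 1.07 and 2.02 in YAP and 1.49, 1.31 and 4.96 in BrafYAP replicates 1, 2 and 6. Its highest value was in the library with the highest surfactant levels, but the groups overlapped (log2 difference 0.33, SE 0.39, limma adjusted p = 0.657), and without replicate 6 the difference was -0.11. The 3 factors of the highest mean value were Elf3 (17.7 to 48.3 in YAP, 13.6 to 45.4 in BrafYAP), Id2 (18.8 to 40.4, and 18.6 to 28.7) and Sox9. Sox9, a factor of the distal lung tip, was at 1.87, 3.30 and 3.17 in YAP and 10.9, 12.1 and 18.5 in BrafYAP. Its log2 difference of 1.96 (SE 0.29, limma adjusted p = 0.0511) lay just outside the threshold and was the smallest adjusted p of the lists. Elf3 and Id2 differed by -0.08 (SE 0.53, limma adjusted p = 0.947) and -0.32 (SE 0.36, limma adjusted p = 0.634).

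Foxa2 and Etv5, both known regulators of alveolar type 2 genes, were picked after their values were seen. Foxa2, a forkhead factor that acts with Nkx2-1 on surfactant genes, was at 0.00844, 0.0199 and 0.0836 in YAP and 1.64, 1.18 and 4.25 in BrafYAP replicates 1, 2 and 6. The groups were far apart, and the log2 difference was 1.59 (SE 0.33, limma adjusted p = 0.0863). Etv5, an ETS factor that maintains type 2 cells, was at 0.127 to 0.588 in YAP and 1.59 to 1.98 in BrafYAP, a difference of 1.10 (SE 0.19, limma adjusted p = 0.0702). Unlike the surfactant genes, Etv5 was not set apart in replicate 6. Some other factors of the lineage list did not overlap between the groups either, among them Sox9, Etv4 and Srebf1. Etv4 was at 0.330 to 0.841 in YAP and 2.33 to 4.12 in BrafYAP (log2 difference 1.38, SE 0.24, limma adjusted p = 0.0702). Srebf1 was at 1.18 to 6.34 and 7.04 to 11.5 (log2 difference 1.355, SE 0.45, limma adjusted p = 0.167). Further factors overlapped, among them Nkx2-1, Foxa1 and Cebpa. Foxa1 was at 0.0388 to 0.103 in YAP and 0.0761 to 0.145 in BrafYAP. Cebpa was at 0.194 to 0.601 and 0.460 to 2.64. Etv4, Srebf1, Foxa1 and Cebpa were also picked after their values were seen.

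Thyroid follicular genes were highest in BrafYAP replicate 6 for 10 of 16 genes, against 23.8% of all genes. Of these 16, 5 were tested and 0 passed. The 3 of the highest mean value were Hhex, a foregut homeobox factor (1.41 to 3.04 in YAP, and 5.72, 6.02 and 29.96 in BrafYAP), Pax8 (6.98 to 8.84, and 3.13 to 7.52) and Cdh16 (4.53 to 13.4, and 1.08 to 3.28). Hhex differed by 1.92 (SE 0.60, limma adjusted p = 0.149), Pax8 by -0.60 (SE 0.31, limma adjusted p = 0.327) and Cdh16 by -1.73 (SE 0.43, limma adjusted p = 0.104). The library with the highest surfactant levels also held the highest Tg, though its value was only 1.18 times that of YAP replicate 3.

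Chil1 and Lamp3 are also expressed by immune cells, so immune markers were set beside them. Of 20 leukocyte genes, 13 were tested and 0 passed, with a median log2 difference of -1.65. At an unadjusted limma p under 0.05, 9 of the 13 were lower, against 9.17% of all genes. The summed value of the list was 829 to 2405 in YAP and 352 to 712 in BrafYAP, lowest in replicate 6. Of the 20, 4 were highest in replicate 6, against 23.8% of all genes. Ly6c2, named after its values were seen, was at 14.7 there and at most 0.534 elsewhere. The part of immune cells in the levels of Chil1 and Lamp3 was not tested. The 3 of the highest mean value were Cd14, C1qa and Cd68, with log2 differences of -1.16 (SE 0.48, limma adjusted p = 0.246), -2.85 (SE 0.65, limma adjusted p = 0.0943) and -1.43 (SE 0.41, limma adjusted p = 0.131). Of 14 alveolar macrophage genes, 6 were tested and 0 passed, and the summed value of 59.4 in replicate 6 lay within the range of the other libraries, 46.5 to 86.0. The genes of the highest mean value, Plet1, Ear2 and Car4, were at 12.2, 27.5 and 5.66 in replicate 6, and at 10.3 to 34.8, 8.19 to 35.5 and 6.31 to 18.1 in the others. Chil3 and Marco, named after their values were seen, were the 2 of the 14 that were highest in replicate 6. Chil3, a chitinase-like protein of macrophages, was at 0.0291 to 0.166 in YAP and 0.886, 2.28 and 9.36 in BrafYAP replicates 1, 2 and 6 (log2 difference 1.88, SE 0.57, limma adjusted p = 0.142). Marco, a scavenger receptor, had 72 estimated reads in replicate 6 and at most 13 elsewhere. Of 23 genes of lung stroma and endothelium, 8 were tested and 0 passed, and the summed value was 25.6 in replicate 6 and 140 to 318 elsewhere. The sum is carried by Msln, which with Col1a2 and Car4 was at 3.52, 2.23 and 5.66 in replicate 6, each the lowest of the 6 libraries. However, 9 of the 23 genes were highest in replicate 6 (all genes, 23.8%). Among them, and named after their values were seen, the endothelial Pecam1 had 696 estimated reads there and 23.0 to 128 elsewhere, Cdh5 had 112 and at most 20, and Ednrb had 497 and at most 22. The stromal Gpc3 had 1987 and 10.0 to 147, and Lum had 742 and 17.0 to 156. These endothelial and stromal transcripts were highest in the same library as the surfactant genes, and their part in the surfactant result was not tested. Other genes of the list were not highest there, among them Kdr and Tmem100, also named after their values were seen. The endothelial Kdr had 546 estimated reads in replicate 6 and 2574 in YAP replicate 2. Tmem100 had 100 in replicate 6 and 633 in BrafYAP replicate 1.

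**Figure D5:**
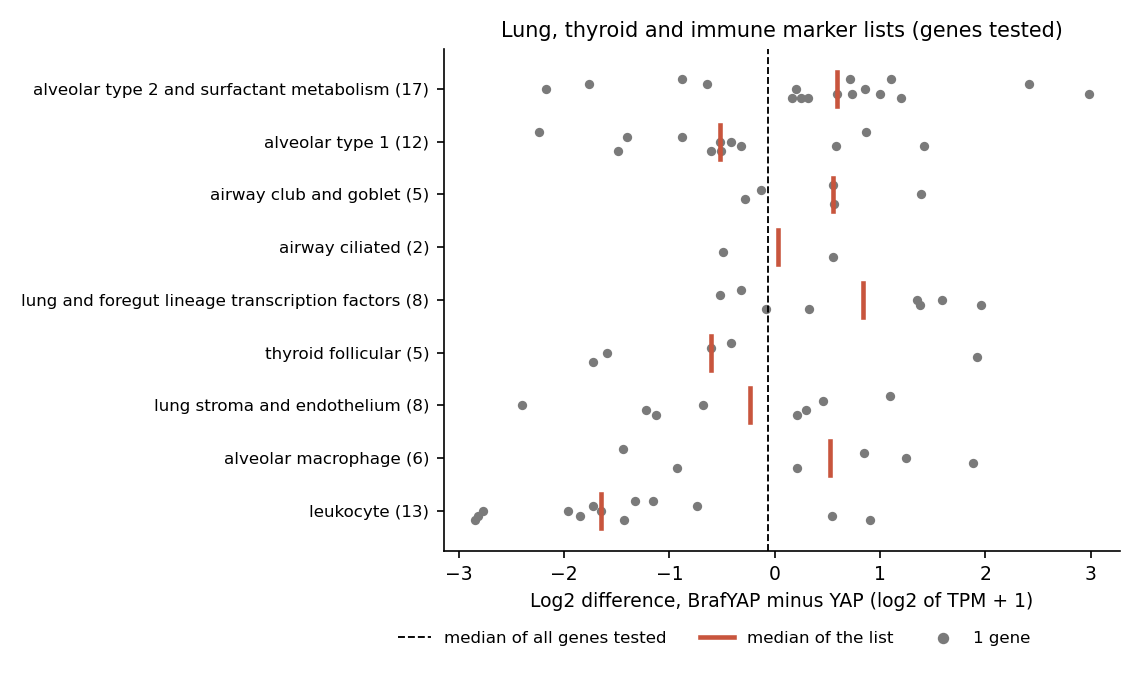
Log2 difference, BrafYAP minus YAP (horizontal axis, on log2 of TPM + 1), of each tested gene of the marker lists (grey points, numbers in brackets), with the list's median (red) and the median of all genes tested (dashed). No point passed the adjusted threshold. The leukocyte list has the lowest median, -1.65, and the lineage transcription factors the highest, 0.84. Genes entered by their mean over all 6 libraries, so some entered only through their values in a single genotype, and the medians include them. Foxa2 had means of 0.0373 in YAP and 2.36 in BrafYAP, and Pdpn had 4.055 and 0.824.

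The driver genes were also read out. Yap1 had 639 to 881 estimated reads in YAP and 1235, 1867 and 297 in BrafYAP replicates 1, 2 and 6 (log2 difference -0.02, SE 0.65, limma adjusted p = 0.987, on scaled estimated reads). Braf had 165 to 284 reads in YAP and 180 to 387 in BrafYAP (log2 difference -0.04, SE 0.41, limma adjusted p = 0.963). The library with the highest surfactant levels therefore had the fewest reads of Yap1. The Yap1 level does not separate the YAPS127A transgene from the endogenous gene, and it is not known whether transgene reads were assigned to it. Likewise, the Braf level does not separate mutant from normal Braf transcripts.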

How the data were processed

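The 6 libraries (3 YAP, 3 BrafYAP) hold RNA of sorted tumor cells and were grouped by their titles. The authors aligned the reads to mm10 with STAR 2.6.1d, quantified them with Partek on Ensembl release 95, and deposited TPM with 0.0001 added. Low deposited TPM were whole multiples of 1 read (within 0.05) for 71.7 to 76.1% of genes when multiplied by the GENCODE M21 gene span, introns included, and for 22.4 to 25.1% with the exonic length. Estimated reads were therefore calculated from the span, exonic TPM from these reads and the exonic length, and scaled reads by returning the authors' scaling between libraries. Estimated reads need not be whole, overlapping genes may share them, and no strand was stated. Coordinates (mm10, first base 1) follow GENCODE M21.

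The genotypes were compared with limma 3.58.1 (R 4.3.3), with a trend of variance on mean, as a two-sided test of log2(value + 1). Genes whose mean reached 1 were tested (Benjamini-Hochberg, threshold 0.05). Lower genes were tested as log2(scaled reads + 1) where their mean reached 10 reads. The fit was tested on simulated data. A difference on the log2(value + 1) scale understates the change of low genes. The members and the 9 marker lists were chosen with earlier results of these data known. The genes named are all members, the 3 genes of the highest mean in each list, list genes past the threshold (0), the 3 genes of the most similar profile for each surfactant protein with predicted genes passed over, Nkx2-1, Yap1 and Braf. Any other gene was chosen after its values were seen. Alternatives were other pseudocounts, filters, scalings and variance models, estimated reads, a replicate block, and each library left out. Array weights were first estimated by REML, which did not converge, and the gene-by-gene method was then used. The estimated reads without BrafYAP replicate 6, and the count of members without overlap under each setting, were added after seeing the data. The labels give no batch.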

Additional observations from a re-analysis of the deposited data

How the results depend on the processing

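Of all genes tested 18 passed, against 1 with a pseudocount of 0.1, 0 with 0.0001, 3 with a minimum mean of 10, 47 with quantile normalization, 1 with median-ratio rescaling, 1 without a trend, 1393 with array weights and 0 on the estimated reads (3404 at an unadjusted p under 0.05). The number was 0 to 465 with 1 library left out (465 without YAP replicate 2), and 142 on the estimated reads without BrafYAP replicate 6. With the replicate number as a block it was 0. Libraries of the same number did not deviate together (r = -0.048 and 0.062). With so few libraries, this check cannot show whether libraries of the same number share a batch. The members' median log2 difference of 1.29 was 3.59 with a pseudocount of 0.0001 and 0.12 with the block, and it was -0.00 to 2.17 with 1 library left out, lowest without BrafYAP replicate 6, also on the estimated reads (2.65, or -0.05 without that library). The count of members higher without overlap, 4, was 4 or 5 with 1 library left out and 4 on the estimated reads, with or without BrafYAP replicate 6. The list genes past the threshold, 0, became 1 with quantile normalization (Sox9), 22 with array weights, 5 without YAP replicate 2, and 4 on the estimated reads without BrafYAP replicate 6. Direction turned for named list genes that had not passed. With array weights the log2 differences were 0.33 for Cyp4b1, -0.49 for Hp, 1.39 for Tppp3, -0.17 for Nkx2-1, 0.043 for Id2, 0.30 for Col1a2 and 0.34 for Msln. With the block they were -0.81 for Hp, 0.59 for Tppp3 and 0.79 for Msln, and with median-ratio rescaling 0.0087 for Elf3. With 1 library left out the ranges were -0.021 to 1.51 for Krt7, -0.50 to 0.17 for Cyp4b1, -0.77 to 1.46 for Hp, -1.51 to 1.05 for Tppp3, -0.11 to 0.58 for Nkx2-1, -0.44 to 0.40 for Elf3, -0.84 to 0.021 for Tg, -0.035 to 0.66 for Car4, -1.14 to 0.045 for Col1a2 and -2.24 to 0.71 for Msln. The cause of these shifts was not tested. Members at few reads in YAP (Sftpb, Lamp3, Cxcl15) are limited by depth.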
